A study of Mus musculus with 24 samples.

Results

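Visceral fat of male and female mice with a deletion of T-bet in regulatory T cells was compared by RNA sequencing, 4 male libraries against 4 female libraries out of 24 in the series. The deletion (genotype TbetFoxp3cre) removes Tbx21, which encodes the transcription factor T-bet, where Cre recombinase is made under the control of Foxp3, the defining gene of regulatory T cells, so other cells of the fat keep Tbx21. The mice were 27 to 33 weeks old, and RNA came from whole visceral, perigonadal fat. The other 16 libraries serve for comparison. They were fitted in the same model, so the gene filter, batch term and p-values rest on them too. Of these 16, 4 male and 4 female libraries have Pparg deleted in the same cells. The other 4 male and 4 female libraries are controls, whose mice carry the same Foxp3 Cre without a deleted gene. Each group held replicates 1 and 3 in batch 1 and replicates 2 and 4 in batch 2, as the sample titles give them, and batch was a covariate in every test. The titles number the libraries 1 and 2 within each batch, so replicates 1 and 2 share a title number, as do replicates 3 and 4. Whether each library is a different animal is not given in the labels, so leaving out 1 library may not leave out 1 animal. The p-values set each difference against the spread of libraries within groups, estimated over all 24 libraries, and not against a known spread of animals. Of 17824 genes with enough counts, 16639 lie on autosomes, and only these are reported, so that X and Y genes do not enter.

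Perigonadal fat differs between the sexes in its anatomy: it lies beside the epididymis in males and along the uterus and ovary in females. White fat stores triglyceride, makes part of its fatty acids from glucose, converts steroids locally and secretes hormones such as leptin. T-bet is known for driving type 1 T cell responses, and a subset of regulatory T cells also makes it. Fat regulatory T cells are few among the cells of the tissue, so the values below are of the whole tissue. In such bulk samples, fewer cells of a type and less RNA per cell cannot be told apart.

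The labels of sex held in every library. Xist, the RNA of the inactive X chromosome, had 0.609, 3.16, 0.992 and 23.3 CPM (counts scaled to library size) in males and 619, 1025, 595 and 1013 CPM in females, and the Y-linked helicase gene Ddx3y had 87.7 to 134.8 CPM in males and 0 to 0.466 CPM in females. Male replicate 4 carried the most Xist among the males. The tissue label held too, since the adipocyte hormone gene Adipoq had 1825 to 3422 CPM in males and 2851 to 3870 CPM in females. Tbx21 itself was near the detection limit of whole fat, with 0.101, 0.746, 0.283 and 1.28 CPM in males and 2.64, 1.17, 0.658 and 0.908 CPM in females (log2 fold change −1.40 ± 0.76 (SE), adjusted p = 0.252, edgeR), and so was Foxp3, with 0.284 to 0.945 CPM in males and 0.303 to 0.914 CPM in females. Total counts were 12551619 to 27520628 in males and 8345575 to 25882749 in females.

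Male libraries differed among themselves in markers of neighbouring organs. One sum covers 8 detected genes of the male reproductive tract, Sult1e1 among them. It was 80.4, 45.4, 58.5 and 4168 CPM in male replicates 1 to 4 and 0.413 to 2.80 CPM in females. Without Sult1e1 it was 15.3, 6.72, 0.99 and 4091 CPM in these males and 0.41 to 2.33 CPM in females. Male replicate 3 then lay within the female range. Male replicate 4 stood far above the rest, with Adam7, a gene of the epididymis, at 804 CPM there and at 9.18, 0.497 and 0 CPM in the other males. Epithelial markers summed to 183, 368, 51.9 and 892 CPM in males and 105 to 180 CPM in females, with the epithelial adhesion gene Epcam at 7.56, 41.0, 0.142 and 85.9 CPM in males and 0.512 to 2.45 CPM in females. Markers of motile cilia summed to 194, 413, 92.2 and 300 CPM in males and 75.4 to 101 CPM in females. Both batch 2 males, replicates 2 and 4, therefore held the most epithelial and ciliary RNA, and male replicate 3 held the least. Of 125 called genes examined one by one, 52 lost their call without at least 1 of the 8 libraries and 54 without both batch 2 males. Such losses are given beside the genes, the second kind where no single library ended the call. Among the libraries used for comparison, control female replicate 1 stood apart in the same way, with 5686 CPM for female reproductive tract markers, where the other 3 control females had 106.6 to 148.4 CPM.

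**Figure D1:**
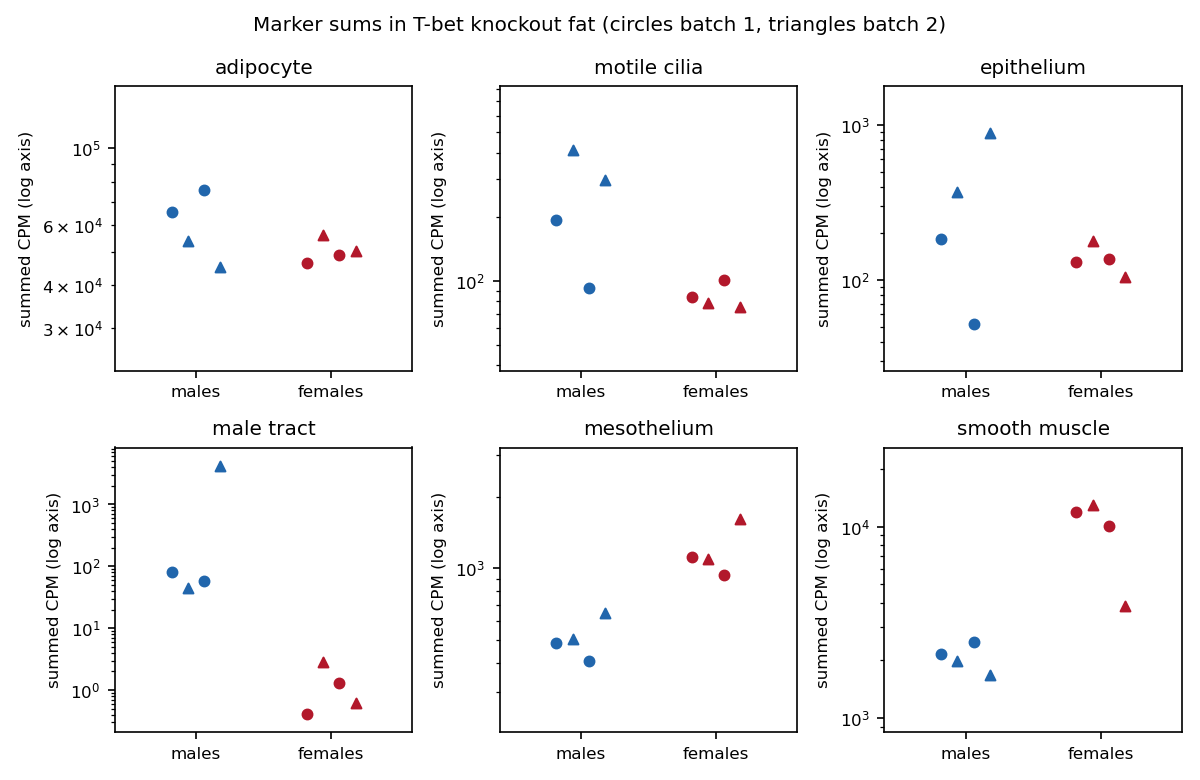
Summed CPM (log axis) of marker lists in T-bet knockout fat, with males on the left and females on the right of each panel, 1 point per library, circles for batch 1 and triangles for batch 2. Male replicate 4 reaches 4168 CPM for the male reproductive tract, a list that includes Sult1e1. Smooth muscle and mesothelial sums are lower in every male than in every female.

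Of 16639 autosomal genes, 1545 (9.29%) differed between males and females at an adjusted p under 0.05, the threshold for a call throughout (edgeR's quasi-likelihood test, Benjamini-Hochberg adjustment). Of these, 655 (3.94%) were higher in males and 890 (5.35%) lower, and 291 of the higher and 504 of the lower genes differed more than 2-fold. The values of the 4 males and the 4 females did not overlap for 991 of the called genes, and for 2083 (12.5%) of all genes tested. The count rests on all the libraries. It was between 840 (without male replicate 3) and 1374 (without male replicate 4) when 1 of the 8 libraries was left out. Without the batch term it was 475, and with only the 8 libraries in the model 2339, of which 1296 were among the 1545.

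Sult1e1, a gene of steroid metabolism, had the largest log2 fold change of the called genes higher in males, among those with a mean log2 CPM of 1 or more and no overlap after batch was removed. Of 26 genes of steroid receptors and steroid metabolism, 6 were higher and 3 lower in males, where 3.94% of all autosomal genes were higher and 5.35% lower. Their median log2 fold change was 0.28, against 0.03 over all autosomal genes. Sult1e1 encodes the sulfotransferase that inactivates oestrogen (chromosome 5, 87575968 to 87591611, GRCm38) and had 65.0, 38.7, 57.5 and 76.8 CPM in males and 0, 0.466, 0 and 0.101 CPM in females. No female library came near the lowest male one, and the log2 fold change was 9.64 (SE 0.68, adjusted p = 3.63e-08). Sult1e1 is also abundant in the epididymis. The other male tract genes summed to 15.3, 6.72, 0.99 and 4091 CPM in male replicates 1 to 4 and to 0.41 to 2.33 CPM in females, and their part in the Sult1e1 values was not tested. Hsd11b1, the enzyme that regenerates active glucocorticoid, had 135, 107, 145 and 107 CPM in males and 31.3, 23.3, 40.6 and 25.0 CPM in females. Fkbp5, a chaperone gene induced by glucocorticoid and androgen receptors, had 77.8, 92.8, 60.4 and 165 CPM in males and 18.4, 22.3, 16.5 and 19.98 CPM in females. Neither gene overlapped between the sexes, at log2 fold changes of 2.06 (adjusted p = 2.17e-04) and 2.38 (adjusted p = 4.94e-04). Hsd17b7, which acts in both oestrogen and cholesterol synthesis, rose by 1.28 on the log2 scale (adjusted p = 0.00211), and the nuclear receptor coactivator gene Ncoa1 by 0.40 (adjusted p = 0.0395, up to 0.124 and over the threshold without any 1 library other than female 2 or male 4).

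Cyp17a1, the 17-hydroxylase of androgen synthesis, also passed the test (log2 fold change 7.17, adjusted p = 0.0354), but on 1 library: it had 34.8 CPM in male replicate 4, which carries the male tract markers, 0.051 to 0.604 CPM in the other males and 0 to 0.110 CPM in females. The adjusted p was 0.28 without male replicate 4, and the call was also lost without any 1 female. On the female side, the progesterone receptor gene Pgr (chromosome 9, 8898900 to 8968611) had 0, 0.213, 0.472 and 0.526 CPM in males and 26.9, 15.3, 20.005 and 6.46 CPM in females. Akr1c14, a hydroxysteroid dehydrogenase that reduces steroid hormones, had 7.76, 6.68, 7.89 and 4.96 CPM in males and 143, 103, 81.2 and 106 CPM in females. Both were lower in every male than in every female, with log2 fold changes of −5.75 ± 1.18 (SE, adjusted p = 0.00483) for Pgr and −4.02 ± 0.57 (adjusted p = 2.96e-04) for Akr1c14. The oestrogen receptor gene Esr1 had 6.85, 36.6, 4.20 and 31.02 CPM in males and 34.0, 67.7, 19.2 and 45.4 CPM in females. Its sexes overlapped and it was not called (log2 fold change −1.40, adjusted p = 0.146). The third lower gene was Cyp7b1, which hydroxylates oxysterols and steroids (−1.62, adjusted p = 0.0141, and 0.0549 without male 3).

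Among the other large rises, several genes were far above the female level in all 4 males. C7 (chromosome 15, 4987750 to 5063773), a component of the terminal complement complex, had 244, 232, 113 and 329 CPM in males and 9.70, 10.96, 12.2 and 17.8 CPM in females. Col6a5, a collagen VI chain, had 138, 148, 80.0 and 170 CPM in males and 5.49, 11.5, 4.13 and 9.39 CPM in females. Kcnj15, an inwardly rectifying potassium channel, had 131, 362, 214 and 288 CPM in males and 22.2, 29.3, 13.9 and 30.1 CPM in females. None of the 3 overlapped between the sexes, and their log2 fold changes were 4.13 for C7 (adjusted p = 3.02e-05), 4.22 for Col6a5 (adjusted p = 7.79e-05) and 3.35 for Kcnj15 (adjusted p = 3.73e-06). Slc5a7, the choline transporter, rose by 5.39, Sez6l by 3.86, the proteoglycan gene Ncan by 3.77 and Tfr2, a transferrin receptor, by 3.42 on the log2 scale.

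A further 4 of the largest rises were highest in the batch 2 males, which held the most epithelial and ciliary RNA. The chloride channel gene Clic6 had 12.8, 41.6, 2.55 and 33.0 CPM in males and 0.233 to 1.11 CPM in females. Prom1, a membrane protein of epithelial protrusions, had 26.8, 81.2, 4.58 and 257 CPM in males and 0.660 to 2.83 CPM in females. Lcn2, a secreted iron-binding protein, had 38.3, 120.7, 5.01 and 89.7 CPM in males and 1.72 to 3.01 CPM in females. Acsbg1, an acyl-CoA synthetase gene, had 42.2, 93.0, 4.91 and 68.2 CPM in males and 1.11 to 2.92 CPM in females. Male replicate 2 exceeded male replicate 4 in Clic6, Lcn2 and Acsbg1, as in the ciliary sum. Male replicate 4 was the higher in Prom1, itself a member of the epithelial list, as in the epithelial sum. In all 4 genes male replicate 3 was lowest, as in both sums. Clic6, Prom1, Lcn2 and Acsbg1 had log2 fold changes of 5.29, 5.07, 4.94 and 4.29, with adjusted p-values of 0.0315, 0.0364, 0.0403 and 0.0149. Without both batch 2 males these became 0.136, 0.231, 0.288 and 0.0579. Clic6 also lost its call without any 1 female or without male 1 or 2 (up to 0.095), Prom1 and Lcn2 without any 1 female or without male 2 or 4 (up to 0.105 and 0.104), and Acsbg1 without female 2 or 4 (up to 0.0561). The part of epithelial RNA in these values was not tested. Of the 20 epithelial genes themselves 1 was higher (Prom1) and 1 lower (Krt23), where 9.29% of all autosomal genes were called. Of 19 cilia genes edgeR called none, with 6 at an unadjusted p under 0.05 and 4 called by DESeq2, although all 19 had positive values (median log2 fold change 2.61). The cilia gene Spag6l, for instance, had 370 counts over the males and 0 over the females, which puts males at least 105-fold higher against a floor of 3 counts over the group (adjusted p = 0.098), but it was at 0 in male replicate 3.

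Genes lower in males included several that were almost silent there. Rxfp1, the relaxin receptor, had 0, 0.284, 0.189 and 0.225 CPM in males and 42.0, 57.5, 14.8 and 18.8 CPM in females. Mmp3, the matrix protease stromelysin, had 0.507, 0.533, 0.897 and 1.35 CPM in males and 64.4, 26.4, 36.2 and 40.1 CPM in females. Neither overlapped, and the log2 fold changes were −7.65 for Rxfp1 (adjusted p = 3.44e-04) and −5.70 for Mmp3 (adjusted p = 1.38e-04). The calmodulin-binding gene Pcp4 fell by 7.73 on the log2 scale, the synapse gene Syndig1 by 7.49, the immune checkpoint ligand Vtcn1 by 5.94, the Wnt agonist Rspo3 by 4.77 and Myoc by 4.97, each without overlap and with adjusted p-values of 1.09e-04 to 0.00434.

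**Figure D2:**
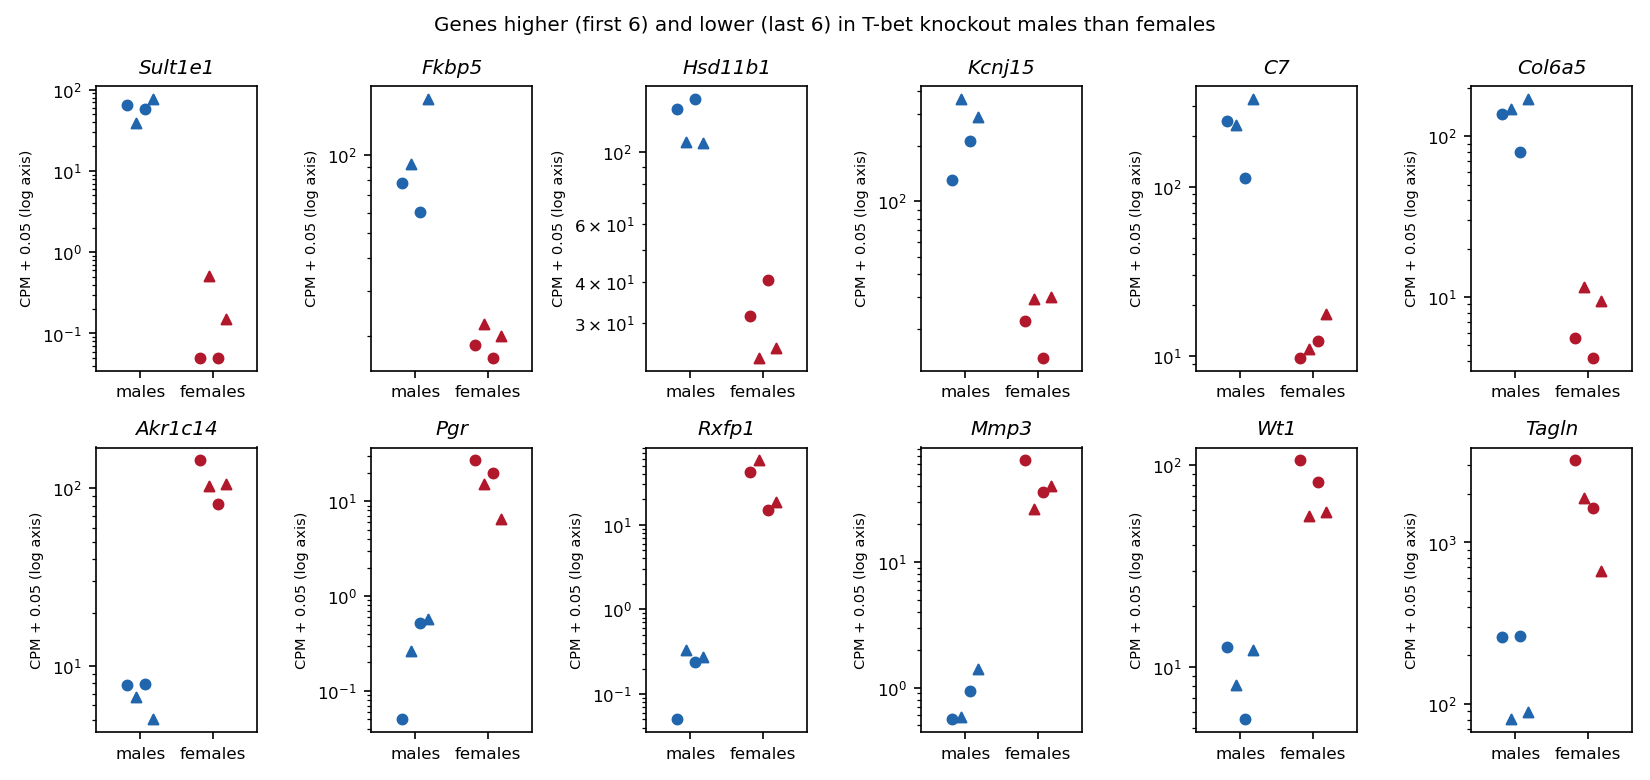
CPM + 0.05 (log axis) of 12 genes in each T-bet knockout library, males left and females right in each panel, circles for batch 1 and triangles for batch 2. The first 6 genes are higher and the last 6 lower in males, and Sult1e1 lies at 38.7 to 76.8 CPM in males and at 0 to 0.466 CPM in females.

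Smooth muscle genes were lower in males as a group. The list of 18 contractile genes was drawn up after their values had been seen, so its count describes these libraries and is not independent evidence: 13 of 18 were lower and none higher, all 18 values were negative, and the median log2 fold change was −2.32, where 5.35% of all autosomal genes were lower. Tagln (chromosome 9, 45929628 to 45936058), the actin-binding protein transgelin, had 261, 80.0, 262 and 89.0 CPM in males and 3221, 1888, 1645 and 663 CPM in females. The lowest female library stood above the highest male one, and the log2 fold change was −3.63 ± 0.46 (SE, with adjusted p = 1.18e-04). Actg2, the actin of visceral smooth muscle, had 12.6, 2.24, 16.01 and 12.3 CPM in males and 278, 547, 234 and 37.6 CPM in females (log2 fold change −5.04 ± 0.99, adjusted p = 0.00352). Cnn1, encoding calponin, fell by 4.56 (adjusted p = 0.00295), the PDZ-LIM gene Pdlim3 by 4.17 (adjusted p = 6.94e-04) and Myocd, the coactivator that drives contractile genes, by 2.68 (adjusted p = 0.00985). The smooth muscle myosin gene Myh11 was lower at a log2 fold change of −2.996 (adjusted p = 0.0041). The intermediate filament gene Des fell by 2.95, and Tpm2, Lmod1 and Smtn by 3.12, 2.27 and 1.88.

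The female libraries varied more than the male ones in this tissue component. The 18 genes summed to 2146, 1992, 2499 and 1678 CPM in male replicates 1 to 4 and to 11960, 12960, 10030 and 3835 CPM in female replicates 1 to 4, so female replicate 4 was the lowest of the females and still above every male. Without female replicate 4, 13 genes were lower, and without both batch 2 males again 13. Without female replicate 2, Acta2 (smooth muscle actin) and Tpm1 (tropomyosin) no longer passed, at adjusted p-values of 0.0644 and 0.056 against 0.0111 and 0.00941 with all libraries. Batch 1 alone called 13 and batch 2 alone 7 of the 18, none higher. In the other genotypes 13 (Pparg knockout) and 17 (control) of the 18 were lower in males. Over all autosomal genes 5.17% and 13.7% were lower there.

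Transcription of many contractile genes depends on serum response factor and myocardin, which act at the CArG box, a short element rich in A and T between CC and GG. The promoters of 2 lower genes that hold a pair of such boxes are shown for that reason, from RefSeq on build GRCm38.p6, as 250 bases before to 50 bases after the annotated start, 5′ to 3′ on the gene's strand, with boxes in capitals. A box was taken as CC, 6 bases of which at least 5 are A or T, and GG, which reads alike on both strands. Acta2 lies at chr19:34255324-34255623 on the minus strand, with boxes starting 84 and 34 bases before the start, and Myl9, encoding the regulatory myosin light chain, at chr2:156775214-156775513 on the plus strand, with boxes starting 161 and 99 bases before it.
Acta2: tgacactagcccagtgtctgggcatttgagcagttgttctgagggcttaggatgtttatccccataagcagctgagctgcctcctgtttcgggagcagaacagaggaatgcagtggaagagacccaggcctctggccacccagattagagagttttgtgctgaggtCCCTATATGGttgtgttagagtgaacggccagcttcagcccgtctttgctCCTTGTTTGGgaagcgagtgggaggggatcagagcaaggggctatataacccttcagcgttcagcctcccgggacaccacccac
Myl9: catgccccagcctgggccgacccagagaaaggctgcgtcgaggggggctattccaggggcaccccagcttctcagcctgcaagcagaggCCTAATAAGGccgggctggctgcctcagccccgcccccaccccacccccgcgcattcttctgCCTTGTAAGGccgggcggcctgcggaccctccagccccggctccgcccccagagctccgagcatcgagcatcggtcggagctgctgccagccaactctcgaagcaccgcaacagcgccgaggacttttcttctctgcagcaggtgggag
Of the 18 genes 14 had a promoter in the RefSeq table, and 4 of these (Acta2, Myl9, Pdlim3 and Synm) held a box, against 11.29% of 27025 genes in the table. With a core of A and T only, 1 of the 14 (Myl9) held one, against 1.63% of all promoter windows. Such a match describes the letters of this window and is no measure of binding. Acta2 had 359, 280, 497 and 170 CPM in males and 1699, 1393, 2075 and 359 CPM in females, where the lowest female overlaps the males, and fell by 2.04 on the log2 scale. Myl9 had 196, 67.2, 207 and 60.3 CPM in males and 599, 743, 689 and 195 CPM in females, with an overlap at the same female replicate 4, and fell by 2.36 (adjusted p = 0.00222). Synm, an intermediate filament gene with a box, was not called (log2 fold change −0.41, adjusted p = 0.486).

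Hox genes encode transcription factors that mark position along the body axis, with high paralog numbers at the posterior end. The posterior groups 9 to 13 were lower in males and the anterior groups mostly were not. Of 11 tested genes of groups 9 to 13, 9 were lower and none higher, with a median log2 fold change of −3.61. Over all autosomal genes 3.94% were higher and 5.35% lower. Of 21 genes of groups 1 to 8, none was lower and 2 were higher, Hoxa4 (1.41) and Hoxc4 (0.95), with a median of 0. Hoxa10, a regulator of uterine development, had 1.78, 2.77, 6.04 and 2.18 CPM in males and 69.9, 40.0, 58.7 and 36.4 CPM in females. Hoxa11 had 0.304, 0.284, 0.283 and 0.451 CPM in males and 27.8, 12.4, 23.4 and 12.5 CPM in females. Hoxd10 had 0.913, 0.675, 1.37 and 0.526 CPM in males and 41.3, 17.1, 22.4 and 13.4 CPM in females. All 3 were separate between the sexes in every library, at log2 fold changes of −3.99 (adjusted p = 2.66e-04), −5.76 (adjusted p = 6.18e-04) and −4.77 (adjusted p = 1.02e-04).

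The posterior genes nearest to silence in males were Hoxd11, with 5 counts in all males and 441 in all females (log2 fold change −6.87, adjusted p = 1.47e-04), and Hoxc11, with 1 count in males and 136 in females. At equal depth the Hoxc11 level was 160 times higher in females (exact interval 28.2 to 6360, for counting error only). Hoxa9 fell by 3.19, Hoxc10 by 2.97 and Hoxd9 by 1.35 on the log2 scale. Hoxa13 had 3 counts in males and 25 in females and passed only narrowly (adjusted p = 0.0468). Leaving out any 1 library other than male replicate 2 ended this call, at adjusted p-values up to 0.117. Hoxa4 likewise lost its call without females 1, 3 or 4 or males 1 or 3 (up to 0.112). Within groups 9 to 13, Hoxb9 (log2 fold change 1.56, adjusted p = 0.14) and Hoxc9 (−0.41, adjusted p = 0.524) were not called. The 9 lower genes lie in the Hoxa, Hoxc and Hoxd clusters, and each of them was also negative in the Pparg knockouts and in controls, at −1.53 to −8.45 and −1.503 to −8.40. Other positional regulators were lower too: Hand2 by 3, Tcf21 by 1.03, Nr2f1 by 0.87 and Tbx18 by 0.87. Tcf21 lost its call without any 1 library other than male 1 (up to 0.148), Nr2f1 without female 2 or males 2 or 3 (up to 0.0815) and Tbx18 without female 1 or males 1 or 2 (up to 0.0653).

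**Figure D3:**
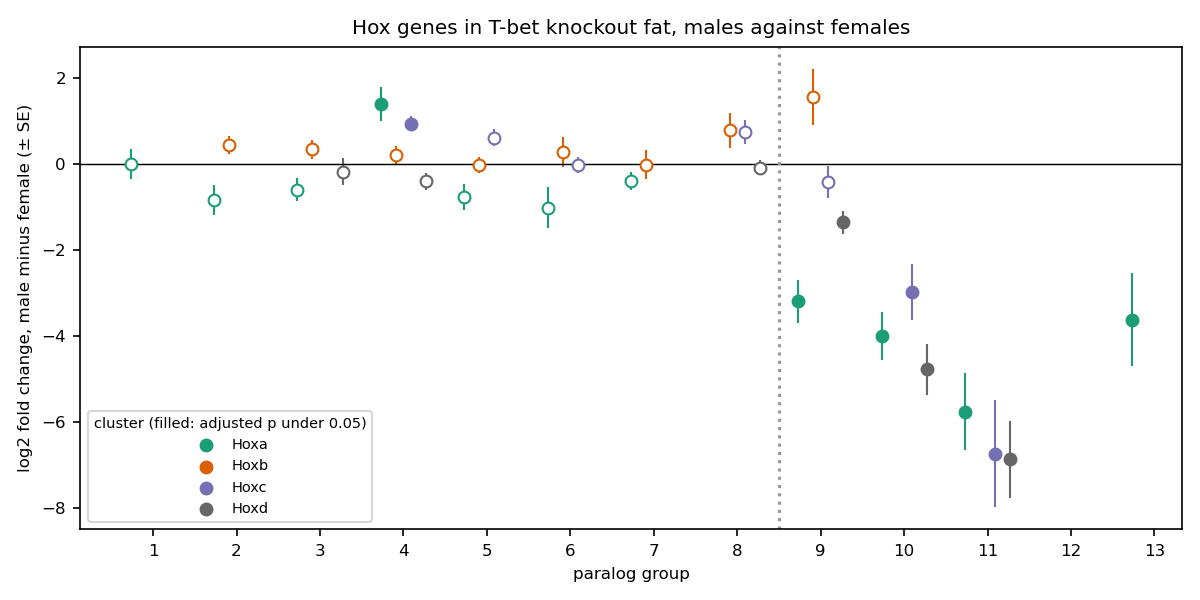
Log2 fold change, male minus female (± SE), of each tested Hox gene in T-bet knockout fat by paralog group, with filled points for an adjusted p under 0.05. Groups 1 to 8 lie around 0, and 9 of the 11 genes of groups 9 to 13 are called lower, down to −6.87 for Hoxd11.

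Mesothelial genes, from the cell layer that covers visceral fat, were lower in males for part of the list: 6 of 15 were lower, none higher, with a median log2 fold change of −1.19. Among all autosomal genes 5.35% were lower. Wt1, the transcription factor of mesothelium, had 12.5, 8.06, 5.43 and 12.1 CPM in males and 105, 55.9, 82.8 and 58.5 CPM in females. The sexes were far apart in every library, and the log2 fold change was −2.90 ± 0.36 (SE, with adjusted p = 1.02e-04). Muc16 fell by 2.34, Bnc1 by 2.07, Upk3b by 1.96, Slc39a8 by 1.54 and Efemp1 by 1.09. Muc16 lost its call without female 4 or males 1, 2 or 3 (up to 0.18), Upk3b and Slc39a8 without any 1 library other than female 3 or male 4 (up to 0.174 and 0.0866), and Efemp1 without both batch 2 males (0.0557). Msln, the mesothelial marker mesothelin, had 22.4, 44.8, 10.8 and 56.9 CPM in males and 66.6, 69.0, 39.7 and 129 CPM in females, and was not called (adjusted p = 0.244). The summed level of the 15 genes was 406 to 646 CPM in males and 932 to 1617 CPM in females. The number of lower genes was 3 without female replicate 4 and also without male replicate 1, 2 or 3, and 5 without both batch 2 males.

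Matrix and stromal genes moved both ways, where 3.94% of all autosomal genes were higher and 5.35% lower. Of 28 collagen and matrix genes, 4 were higher and 5 lower in males. Besides Col6a5, the basement membrane genes Col4a2 and Sparc rose by 1.06 and 1.10, and the protease gene Adamts5 by 0.93. Besides Mmp3, the lower ones were Postn, encoding periostin, with 126, 143, 182 and 162 CPM in males and 701, 1133, 517 and 497 CPM in females, the proteases Mmp14 and Mmp2, and Col14a1. Postn was separate in every library (log2 fold change −2.25, adjusted p = 0.00108), and the other 3 fell by 1.64, 1.23 and 0.94. Col4a2 lost its call without females 2 or 4 or males 2 or 3 (up to 0.11), and Sparc and Adamts5 without these or female 1 (up to 0.134 and 0.126). Mmp14 lost it without female 1 or male 3 (up to 0.0659), Mmp2 without any 1 library other than females 2 or 3 (up to 0.121), and Col14a1 without any other than female 3 or male 1 (up to 0.136). Of 28 stromal progenitor genes, 2 were higher and 6 lower. Bmper, a modulator of bone morphogenetic protein signals, had 47.5, 46.1, 58.4 and 50.3 CPM in males and 17.99, 18.1, 11.4 and 18.4 CPM in females (log2 fold change 1.63, adjusted p = 0.00426), and Gdf10 rose by 0.83. Lum fell by 2.42, Clec11a by 2.36, Pdgfra, the receptor that marks fibroblast progenitors, by 1.12, F3 by 1.01 and Dcn by 0.96. Gdf10 lost its call without females 1, 2 or 3 or males 1 or 4 (up to 0.106), Dcn without female 4 or males 2 or 4 (up to 0.0812), and Lum, Pdgfra and F3 without both batch 2 males (0.0731, 0.141 and 0.074). In the complement system C7 was the only one of 16 genes to rise, while C3, the central component, fell by 1.37 (adjusted p = 1.40e-04), C1ra by 1.04, C1s1 by 0.84 and the inhibitor Cd55 by 0.70. Cd55 lost its call without female 4 or males 1, 2 or 4 (up to 0.106), and C1s1 without both batch 2 males (0.0731).

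Among lipid genes, part of the cholesterol synthesis pathway was higher in males. Of 21 genes, 7 were higher and none lower, all 21 values were positive, and the median log2 fold change was 0.74, where 3.94% of autosomal genes were higher. Sqle, encoding squalene epoxidase, had 18.1, 36.7, 25.5 and 35.5 CPM in males and 11.2, 12.1, 13.6 and 14.7 CPM in females. Msmo1, a sterol demethylation enzyme, had 30.3, 34.4, 47.9 and 40.3 CPM in males and 20.9, 15.9, 21.1 and 13.9 CPM in females. Both were separate between the sexes, with log2 fold changes of 1.14 (adjusted p = 0.00543) and 1.12 (adjusted p = 0.00555). The mevalonate pathway gene Pmvk rose by 1.09 and Cyp51 by 1.08 on the log2 scale, besides Hsd17b7. Pmvk lost its call without females 2 or 4 or male 3 (up to 0.0871), Cyp51 without any 1 library other than male 1 (up to 0.116), and Sqle and Msmo1 without both batch 2 males (0.101 and 0.0747). The count was 4 without male replicate 3, female replicate 2 or female replicate 4, and 2 without both batch 2 males. Batch 1 by itself gave 0 (edgeR, median 0.70) and batch 2 by itself gave 10 (median 1.08).

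In fatty acid synthesis edgeR called 2 of 23 genes, both desaturases and both higher. That share is near the 9.29% of all autosomal genes called in either direction, of which 3.94% were higher. Scd1 (chromosome 19, 44394450 to 44407709), the enzyme that makes monounsaturated fatty acids, had 15332, 19860, 20350 and 24596 CPM in males and 4133, 3924, 3373 and 5149 CPM in females. Every male library was above every female one, and the log2 fold change was 2.27 ± 0.38 (SE, with adjusted p = 0.00117). Its relative Scd3 also passed (1.595, adjusted p = 0.0496) but overlapped between the sexes and lost its call without females 2, 3 or 4 or males 2, 3 or 4 (adjusted p up to 0.165). Because the Scd genes resemble each other, reads may be shared between them. Of the 23 lipogenesis values 22 were positive, with a median of 0.52. The number called was 5 with DESeq2, with voom and with only the 8 libraries compared, 1 with the replicate block, 1 to 3 with 1 library left out, 0 in batch 1 (edgeR) and 3 in batch 2, all of them higher. Fasn, the fatty acid synthase, had 461, 2484, 2054 and 2384 CPM in males and 457, 1459, 524 and 2360 CPM in females. Its libraries varied more within a sex than between the sexes (adjusted p = 0.297).

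The medians of the same lists stood on the other side of 0 in the genotypes used for comparison. Of the 23 lipogenesis genes, 2 were higher and none lower in males of the T-bet knockout (median log2 fold change 0.52), none higher and 9 lower in the Pparg knockout (median −0.61), and none higher and 14 lower in controls (median −1.16). Of the 21 cholesterol genes, 7 were higher and none lower in the T-bet knockout (median 0.74). edgeR called none of them in the Pparg knockout (median −0.20), and in controls 2 were higher and 4 lower (median −0.36). Over all autosomal genes 3.94% were higher and 5.35% lower in the T-bet knockout. These shares were 3.59% and 5.17% in the Pparg knockout and 13.8% and 13.7% in controls. The difference itself, T-bet knockout minus control, was tested gene by gene. It was larger in the T-bet knockout at an unadjusted p under 0.05 for 20 of 23 lipogenesis genes (median difference 2.34) and for 15 of 21 cholesterol genes (median 1.12), where 11.6% of all autosomal genes passed in either direction and 6.01% in that one. None of these genes passed edgeR's test after adjustment over all genes, and the smallest adjusted p, 0.0979, was shared by Elovl6, Acly and Tkt. DESeq2 called 15 of the lipogenesis and 5 of the cholesterol genes. Over the settings tried, including each library left out, 16 to 22 lipogenesis genes and 8 to 16 cholesterol genes passed at the unadjusted level, the lowest numbers coming from batch 1 alone. Without control female replicate 1, which carries the female tract markers, they were 22 and 14, and 3 lipogenesis genes were called. The lipid lists were not alone. At the unadjusted level the difference was also larger for 13 of 19 cilia genes (median 4.71) and 9 of 20 epithelial genes (median 5.46). Control female replicate 1 held the highest control female sums of these lists, 1626 and 1837 CPM. The difference was negative for 13 of 22 macrophage, 10 of 29 interferon and 5 of 12 adipocyte expansion genes.

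The levels of 3 of these genes in each group show the values behind the difference. Elovl6, which elongates palmitate, averaged 45.0 ± 21.7 CPM in T-bet knockout males and 29.5 ± 4.99 CPM in T-bet knockout females (SD, n = 4 each). Its Pparg knockout means were 57.3 ± 49.3 CPM in males and 309 ± 194 CPM in females, and its control means 45.3 ± 35.5 CPM in males and 647 ± 325 CPM in females. Acly, which supplies cytosolic acetyl-CoA, averaged 403 ± 177 CPM in T-bet knockout males and 338 ± 172 CPM in T-bet knockout females, against 398 ± 230 CPM in control males and 3218 ± 1340 CPM in control females. Scd1 averaged 20030 ± 3788 CPM in T-bet knockout males and 4145 ± 742 CPM in T-bet knockout females, against 21280 ± 7506 CPM in control males and 24690 ± 17420 CPM in control females. For all 3 genes the T-bet knockout females held the lowest mean of the 6 groups, and no test of females against females was run here. The summed level of the adipocyte markers, Adipoq among them, was 45120 to 75860 CPM in T-bet knockout males, 46380 to 56160 CPM in T-bet knockout females and 13130 to 62980 CPM in control females.

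**Figure D4:**
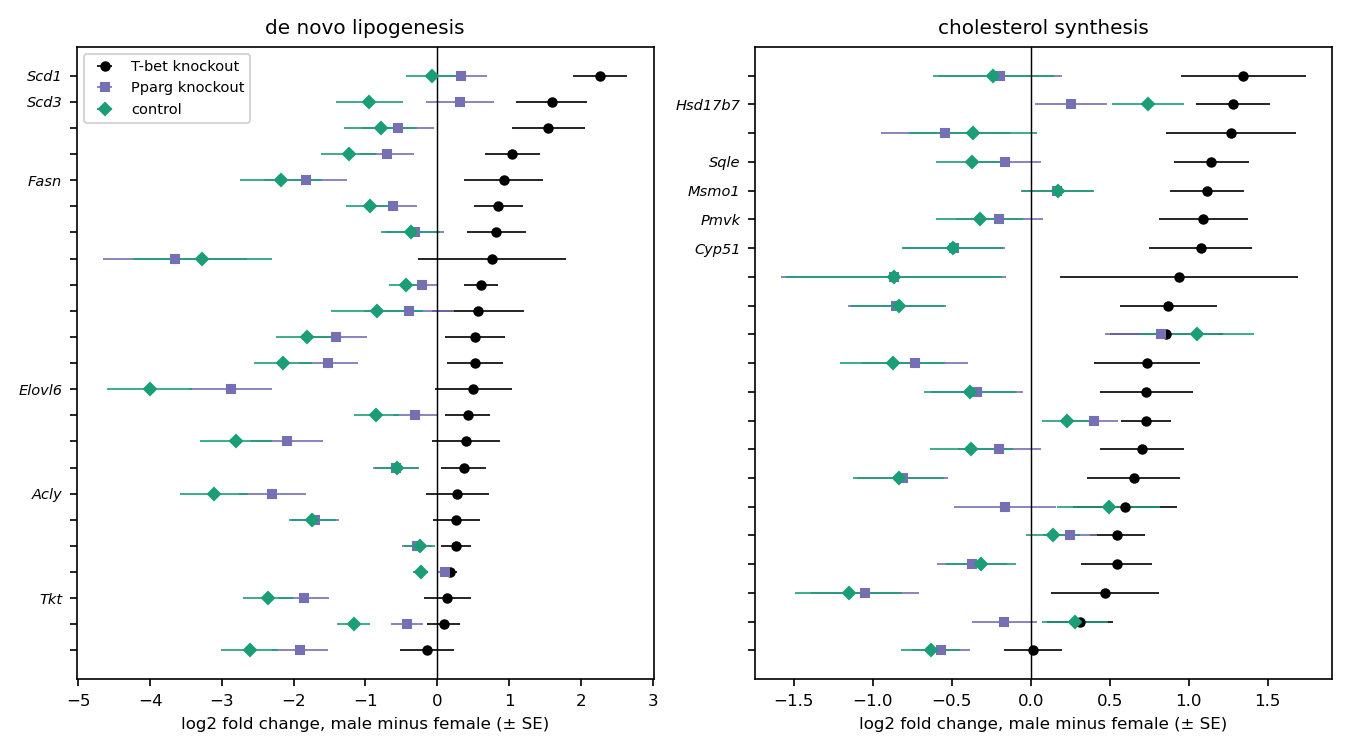
Log2 fold change, male minus female (± SE), of the lipogenesis and cholesterol synthesis genes in T-bet knockout, Pparg knockout and control fat, 1 row per gene, with names for genes described in the text. In the T-bet knockout 22 of 23 and 21 of 21 values are above 0, while the control medians are −1.16 and −0.36.

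Of 24 adipocyte genes edgeR called 2 (8.3%), near the 9.29% of all autosomal genes called, and both were higher in males. Lep (chromosome 6, 29060221 to 29073876), which encodes the satiety hormone leptin, had 2599, 4667, 4756 and 2668 CPM in males and 1206, 999, 1988 and 803 CPM in females. The sexes did not overlap (log2 fold change 1.53, adjusted p = 0.0263), but the call was lost without females 1, 2 or 4 or males 2 or 3, at adjusted p-values up to 0.0981. In controls the log2 fold change of Lep was 3.30. Dgat2, of triglyceride synthesis, rose by 1.01 and lost its call without any female or without males 2 or 3 (up to 0.164), and these were the only 2 of 24 adipocyte genes called. Of 12 genes that follow adipocyte expansion, Trp53inp2 rose by 1.48 (adjusted p = 0.00201) and Npr3, the clearance receptor for natriuretic peptides, by 1.04 (adjusted p = 0.0312, up to 0.124 without females 1, 2 or 4 or males 1 or 3). The median of the 12 was 0.68 in the T-bet knockout, 0.90 in the Pparg knockout and 1.93 in controls. In controls 8 of them were higher in males, where 13.8% of all autosomal genes were higher. Of 23 oxidative phosphorylation genes none was called by edgeR or DESeq2, and 1 had an unadjusted p under 0.05. Igfbp3, which binds insulin-like growth factors, fell by 2.35 (adjusted p = 0.00206) as the only one of 20 insulin pathway genes.

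Immune lists held few calls, where 9.29% of all autosomal genes were called in either direction. edgeR called none of 30 T cell and cytotoxic genes (1 at an unadjusted p under 0.05) and none of 22 B cell genes (2 at that level), and DESeq2 called none of either, although 28 of the 30 T cell values were negative (median log2 fold change −0.69). T cell genes summed to 63.2, 61.4, 43.0 and 121 CPM in males and 176, 68.3, 173 and 49.1 CPM in females, so the batch 1 females were highest and batch 1 by itself had a median of −1.54, batch 2 by itself one of 0.57. Of 29 interferon response genes 27 were negative (median −0.67) and 1 was called, the immunoproteasome gene Psmb9 (−0.82, adjusted p = 0.0484), which lost its call without any library other than female replicate 4 (up to 0.168). Interferon genes summed to 1183 to 1493 CPM in males and to 1784, 4231, 1826 and 1538 CPM in females, female replicate 2 being the highest, and without it the median was −0.42. Without female replicate 4 the median was −0.83 and 6 genes were lower, and DESeq2 called 6 and voom 3 genes lower with all libraries. Of 22 macrophage genes, Mertk, a receptor for dying cells, was higher (0.51), and Tlr4 (−0.76) and the transcription factor gene Maf (−0.86) were lower. Mertk lost its call without females 1, 2 or 3 or male 3 (up to 0.0844) Maf without female 1 or males 1 or 2 (up to 0.0982), and Tlr4 without both batch 2 males (0.0542). The median of the macrophage genes was −0.31 in the T-bet knockout, 0.41 in the Pparg knockout and 0.78 in controls. In controls 11 were higher in males, where 13.8% of all autosomal genes were higher. The difference between T-bet knockout and control was negative for 13 of the 22 at an unadjusted p under 0.05 and passed adjustment for none with edgeR and for 4 with DESeq2. Among all autosomal genes 11.6% passed at that unadjusted level in either direction.

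Some single genes of inflammation differed, where 9.29% of all autosomal genes were called. Hp, the haemoglobin-binding acute phase protein that adipocytes also make, had 4673, 5213, 4195 and 1984 CPM in males and 1114, 561, 2235 and 623 CPM in females, with male replicate 4 below the highest female (log2 fold change 1.97, adjusted p = 0.00304). Nos2, the inducible nitric oxide synthase, rose by 1.41 (adjusted p = 0.00869), Cxcl2, a neutrophil attractant, by 3.76 (adjusted p = 0.0208) and the neutrophil protein gene S100a8 by 3.04 (adjusted p = 0.00708). Cxcl2 lost its call without females 1, 2 or 4 or male 2 (up to 0.0641). Of 11 neutrophil and mast cell genes S100a8 and Kit, a growth factor receptor of mast cells, were higher and none was lower, while 8 values were negative and the median was −0.62. Cxcl12, a chemokine of stromal cells, had 280, 207, 240 and 160 CPM in males and 519, 388, 497 and 473 CPM in females. It was lower in every male (−1.10, adjusted p = 0.00651), and Cxcl14 fell by 1.03 (adjusted p = 0.0465). Cxcl12 lost its call without both batch 2 males (0.0672) and Cxcl14 without any 1 of the 8 libraries (up to 0.115). Il33, the stromal cytokine that sustains fat regulatory T cells, fell by 0.93 (adjusted p = 0.0187) but overlapped between the sexes and lost its call without female 4 or males 2 or 3 (up to 0.078). Of 22 regulatory T cell genes, the ectonucleotidase gene Nt5e was higher (2.47) and the costimulatory receptor gene Tnfrsf9 lower (−1.77). Nt5e lost its call without females 1, 3 or 4 or male 4 (up to 0.0763), and Tnfrsf9 without any library other than male replicate 2 (up to 0.108). Each of the 8 libraries left out ended the only endothelial call of 22 genes, Vwf (0.55, adjusted p = 0.0476, up to 0.166).

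Further lists had 3 or fewer calls, where 3.94% of all autosomal genes were higher and 5.35% lower. Of 19 imprinted genes H19 (−2.69), Meg3 (−1.51) and Grb10 (−0.70), a growth factor receptor adaptor, were lower, with adjusted p-values of 0.0108, 0.00156 and 0.00246. Without both batch 2 males those of H19 and Grb10 were 0.0892 and 0.0683. Of 12 detected female tract genes, Pgr, Hoxa13 and Inha, a subunit of inhibin (−1.46, adjusted p = 0.00915), were lower. Of 8 major urinary protein genes, Mup1, Mup10 and Mup11 were lower, and each lost its call without female 2 or without male 1, 2 or 3, among others (adjusted p up to 0.0778, 0.137 and 0.153). Mup1 had 0 counts in males and 20 in females, so males were at least 7.84-fold lower, and these near-identical genes share reads, which makes their separate values uncertain. The epithelial keratin gene Krt23 had 0 counts in males and 56 in females, at least 21.9-fold lower in males (adjusted p = 0.0132, and 0.0883 without both batch 2 males). Prdm16, a regulator of thermogenic fat, rose by 0.88 (adjusted p = 0.0101). Of 19 thermogenic genes it was the only one to rise, and Tnfrsf9, which also marks beige adipocytes, the only one to fall. edgeR called none of 13 growth hormone response genes (5 at an unadjusted p under 0.05, 2 called by DESeq2), 22 immediate early genes (2 and 2), 16 cytochrome P450 genes (4 and 1), 20 antigen presentation genes (2 and 2) and 20 lipid-associated macrophage genes (7 and 4).

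**Figure D5:**
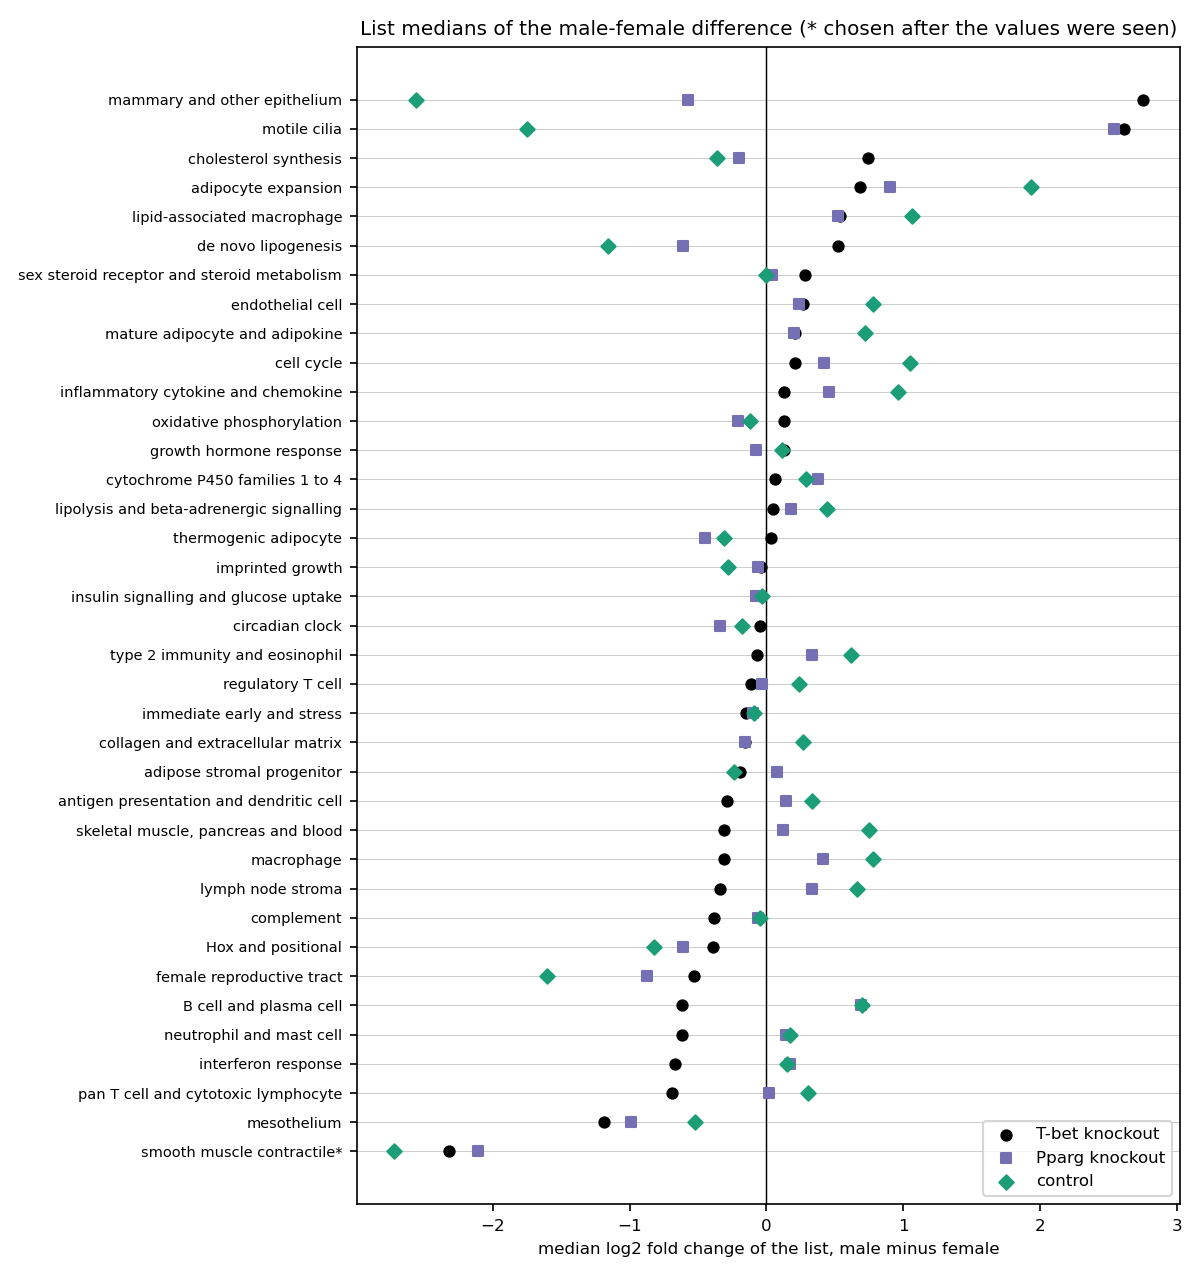
Median log2 fold change, male minus female, of each gene list in T-bet knockout, Pparg knockout and control fat, with an asterisk for the list drawn up after values were seen. Smooth muscle (−2.32) and mesothelium (−1.19) lie below 0 in the T-bet knockout, cholesterol synthesis (0.74) above it.

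Most autosomal sex differences of the T-bet knockout were found in the other genotypes as well. Of its 1545 called genes, 819 were also called in the same direction in the Pparg knockout (53% of the T-bet calls, 56.2% of the Pparg calls) and 1163 in controls (75.3% of the T-bet calls, 25.4% of the control calls), and none in the opposite direction. In the Pparg knockout 1458 genes (8.76%) and in controls 4573 genes (27.5%) were called. Called in the same direction in all 3 genotypes were 756 genes, 248 higher and 508 lower, among them Sult1e1, Pgr, C7, Hoxa10 and Tagln. The male-female difference of the T-bet knockout set against that of controls gave 1 called gene of 16639 (0.00601%), with 1938 at an unadjusted p under 0.05 and 215 called by DESeq2. Set against the Pparg knockout edgeR called none, with 660 genes at an unadjusted p under 0.05 and 24 called by DESeq2. The 1 gene was Abcg1, a cholesterol exporter, with 52.5, 41.6, 52.8 and 42.4 CPM in T-bet knockout males and 70.4, 62.0, 64.9 and 64.9 CPM in T-bet knockout females, and with means of 50.05 ± 8.58 CPM in control males and 24.9 ± 7.87 CPM in control females (SD, n = 4 each). All 4 T-bet knockout males lay below the females (log2 fold change −0.48, adjusted p = 0.0669), whereas control males were higher than control females (1.02, adjusted p = 2.97e-04). The difference of −1.501 ± 0.23 (SE) had an adjusted p of 0.0405. This call was lost without any 1 of the 8 T-bet knockout libraries (up to 0.172) and without any 1 control library other than female 1 or male 2 (up to 0.185). It was also lost with the other size factors (0.0549), without a batch term (0.168), with the replicate block (0.107), with the other batch of control female replicate 1 (0.0987) and in batch 2 (0.0709). The call was kept with DESeq2 (9.47e-07), limma voom (4e-04) and limma on log2 FPKM (0.00595). In edgeR it was kept with only the genotypes compared (0.0156), a batch term for each sex (0.0154) and batch 1 alone (0.0206). Over these and the other settings the difference was −1.213 to −1.829.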

How the data were processed

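Counts per gene were deposited by the authors as 1 table of 27179 genes, made with featureCounts on GRCm38 (mm10), per the submitters' processing notes. Total RNA (lipid tissue kit) went into TruSeq libraries, per the labels. Which aligner, annotation and versions were used is not given in the sources at hand. Deposited log2 FPKM values of the authors, of which the offset is not stated, served 1 alternative test only.

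All 24 libraries were analysed together in R 4.3.3 with edgeR 4.0.16: filterByExpr by group, TMM (trimmed mean of M values) scaling, and the robust quasi-likelihood test with 6 groups and batch (17 residual degrees of freedom, common biological coefficient of variation 0.404). P-values were adjusted over all 17824 genes, and CPM values are TMM-scaled and not per length. Of these genes 584 lie on X or Y, 15 are mitochondrial and 586 had no chromosome in the RefSeq table, and none of these is reported. Alternatives used limma 3.58.1 and DESeq2 1.42.0, other filters, scalings and batch terms, and each library left out. A count of 0 was read as a floor of 3 counts over a group. Intervals and floors cover counting error only.

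Named were up to 12 largest rises and falls whose mean log2 CPM reached 1 and whose sexes did not overlap after removing batch means, 3 called members per list, the targeted genes and sex-linked checks. Other list members were named after their values were seen, and a few genes are not reported here. The members and the 38 gene lists were chosen with earlier results of these data known, as was the smooth muscle list, which was added after the values were seen.

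Replicate numbers follow the sample descriptions, while the titles number libraries within each batch. Same-numbered males and females deviated from their group means together (correlations of 0.32, 0.35, 0.28 and 0.19), but not once batch was removed (−0.07, −0.05, −0.04 and −0.09). That check joins males to females. Whether libraries of a sex that share a title number come from the same animal was not tested. On data simulated for this comparison over 17544 genes, 63% of 100 genes changed 2-fold and 89% of 100 changed 4-fold were called. Of the unchanged genes 16 were called. The simulated libraries held no batch effect and no other group difference, and genes at low levels were not changed. These shares therefore do not carry over to genes near the floor or to libraries as varied as those here.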

Additional observations from a re-analysis of the deposited data

Results flagged for a closer look

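Of 230 sets of 4 libraries examined (each named gene or marker sum in 1 sex), 18 (7.83%) held a library far from the other 3, where chance alone gives about 1 in 20. Male replicate 4 had a male tract sum of 4168 CPM against 45.4 to 80.4 CPM in the other males, and a female tract sum of 446 CPM against 64.7 to 84.3 CPM. In females the female tract sum of replicate 1 was 119 CPM against 97.5 to 99.5 CPM.

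Among genes higher in males, Tfr2 had 78.5 CPM in male replicate 2 against 15.4 to 24 CPM in the other males. The outlying female values of such genes were 11.4 CPM for Bmper (replicate 3, others 18 to 18.4), 1.11 CPM for Clic6 (replicate 4, others 0.233 to 0.371), 12.7 CPM for Nt5e (replicate 2, others 3.33 to 4.62), 1.28 CPM for Sez6l (replicate 1, others 1.72 to 1.75) and 4.42 CPM for Slc5a7 (replicate 3, others 0.233 to 0.908). Among genes lower in males, male replicate 4 lay above the other males for Hoxa11 (0.451 CPM, others 0.283 to 0.304), Hoxc11 (0.075 CPM, others 0), Mup11 (0.826 CPM, others 0) and Syndig1 (0.601 CPM, others 0 to 0.094), and male replicate 2 did for Hoxa13 (0.107 CPM, others 0) and Tnfrsf9 (0.746 CPM, others 0.304 to 0.376). Female replicate 2 stood out for Mup1 (0.7 CPM, others 0.202 to 0.256) and Mup11 (8.74 CPM, others 0.914 to 2.12), and female replicate 1 for the antibody gene Iglc1 (16 CPM, others 1.5 to 2.72), which was not called.

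The male-female difference of Abcg1 differed between genotypes, by −1.5 on the log2 scale, T-bet knockout minus control (adjusted p = 0.0405, edgeR). The call was lost without any 1 T-bet knockout library (adjusted p 0.0758 to 0.172), with the replicate block (0.107) and with the other size factors (0.0549). It was kept with DESeq2 (9.47e-07) and limma voom (4e-04). All 4 T-bet knockout males lay below all 4 T-bet knockout females.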

How the results depend on the processing

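Counts of calls depended on the setting. The male-female count in the T-bet knockout (1545) was 2339 with only the 8 libraries compared, 2551 with DESeq2, 2679 with limma voom, 475 without a batch term, 3565 with a batch term for each sex, 400 in batch 1 alone, 1010 using batch 2 alone, 844 without both batch 2 males (chosen after seeing the data), 795 when more than 2-fold was required, and 840 to 1374 with 1 library left out. Genes higher in males (655) numbered 1147, 1317, 1191, 162, 1681 and 112 under the first 6 of these settings, 335 without both batch 2 males, 291 over 2-fold, and 330 to 567 with 1 library left out. Genes lower (890) numbered 1488 with voom, 313 without batch, 1884 with a batch term for each sex, 288 in batch 1 alone, 564 in batch 2 alone, 509 without both batch 2 males, 504 over 2-fold, and 461 to 807 with 1 library left out. The control count (4573) was 1774 with control libraries only, 2256 without batch, 6879 with a batch term for each sex, 1230 in batch 2 alone, 1970 over 2-fold, and 2909 to 5014 with 1 library left out. The Pparg knockout count (1458) was 498, 470, 4057, 43 and 775 under the same settings, 2630 with DESeq2, 2373 with voom, and 563 to 1667 with 1 library left out. The difference T-bet knockout minus control (1 gene) was 22 with the 16 libraries compared, 215 with DESeq2, 13 with voom, 9 on log2 FPKM, 36 with a batch term for each sex, 171 in batch 1, 2 in batch 2, 0 with the other size factors, without batch, with the batch of control female replicate 1 taken from its source name, and without both batch 2 males, 0 without any 1 T-bet knockout library, and 0 to 8 with 1 library of either genotype left out. The difference from the Pparg knockout (0 genes with edgeR, 660 at an unadjusted p under 0.05) was 24 with DESeq2, 1 on log2 FPKM, 6 in batch 1 and 1 in batch 2. With a replicate block in place of batch the T-bet knockout count was 1335 and the difference from control 0. With the source name's batch for control female replicate 1 the T-bet knockout count was 1218, with 525 genes higher and 693 lower. The sign changed, with no call, for Dbp at 0.29 in batch 1 alone, and for Foxp3 at 0.38 without both batch 2 males and at 0.19 without female replicate 3 and 0.07 without male replicate 2, within a range of −0.81 to 0.19 over the libraries left out, against −0.21. Of 125 called genes examined, 52 lost their call without at least 1 library. Of the called genes 42.4% were higher in males, against 28% in batch 1, 34.1% without batch, 49% with only the 8 libraries compared and 51.6% with DESeq2. The causes were not tested. Depth limits genes such as Tbx21 and Foxp3, at about 1 CPM or less in most libraries.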

Other observations

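A few differences fell outside the groups described above, where 9.29% of all autosomal genes were called. Clock, a core gene of the circadian oscillator, rose by 0.50 in males (adjusted p = 0.0338, edgeR), and the clock output gene Dbp had 68.3, 12.9, 52.1 and 14.1 CPM in males and 48.5, 92.9, 48.2 and 114 CPM in females (log2 fold change −1.83, adjusted p = 0.0478). The Dbp log2 fold change was −2.93 (adjusted p = 6.62e-04) in batch 2 alone and 0.29 (adjusted p = 0.6) in batch 1 alone. Of 19 clock genes only these 2 were called, and both lost their calls without female 2 or 4 or without male 1, 2 or 3 (Clock up to 0.127, Dbp up to 0.168), Dbp also without male 4. Of 23 cell cycle genes, Aurka, a mitotic kinase, rose by 0.92 (adjusted p = 0.0141, and 0.106 without both batch 2 males). Kit rose by 1.04, in the neutrophil and mast cell list with its negative median, (adjusted p = 0.0208, up to 0.0648 without female 1, 2 or 4 or male 3). Enpp2, which makes lysophosphatidic acid and is also an adipocyte product, rose by 1.09 as the only one of 13 lymph node stroma genes (adjusted p = 0.0204, up to 0.0775 without female 1 or 3 or male 3). Of 12 genes of skeletal muscle, pancreas and blood, the fast troponin gene Tnnt3 fell by 2.85 (adjusted p = 0.00226) and the elastase gene Cela1 rose by 1.23 (adjusted p = 0.021, up to 0.0805 without female 2 or 4 or male 2 or 3).

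Of the 1545 autosomal calls, 144 had an unadjusted p of at least 0.05 for the male-female difference in both the Pparg knockout and the controls. The difference between genotypes had an unadjusted p under 0.05 (edgeR) for 139 of the 1545 against the Pparg knockout and for 197 against controls. Over all 16639 autosomal genes these counts were 660 and 1938 (11.6%). The 1545 were called on T-bet knockout values that also enter this difference, so their counts only describe these libraries.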
